A study of Mus musculus with 5 samples.

Results

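ATAC-seq, in which a transposase cuts accessible DNA, was used to compare open chromatin of the distal ectoderm between the forelimb and the hindlimb of mouse embryos. The regions described had a called peak in both libraries of 1 limb and in neither library of the other. Peaks of the 4 ectoderm lists that shared at least 1 bp were merged, and 6232 of 158311 regions met this rule. Of these, 4688 were forelimb-only (2.96% of all regions) and 1544 were hindlimb-only (0.975%). Both limbs came from E14.5 embryos of the outbred CD1 strain, with ectoderm freed from mesoderm by trypsin. Each limb had 2 libraries, forelimb replicates 1 and 2 and hindlimb replicates 1 and 2. One library of E13.5 CD1 forebrain, digested with collagenase, took no part in choosing regions and served as an outside tissue. No allele or agent is given for any group. Nothing in the labels ties the replicates to different embryos or litters, and their spread may therefore be technical.

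The distal limb ectoderm is the epithelium over the hand or foot plate and gives rise to epidermis, hair, nails and sweat glands. Earlier in development its rim forms the apical ectodermal ridge, which drives limb outgrowth through FGF signals and depends on transcription factors such as Sp8. Limb type is set chiefly in the mesenchyme, where Tbx5 acts in the forelimb and Tbx4 and Pitx1 act in the hindlimb. Hox genes give cells their position along the body axis, and Hoxc13 is known for its part in hair and nail formation. A region of open chromatin away from a gene start is often an enhancer, a switch for a gene that may lie far from it.

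The deposited lists held 73830 and 73718 peaks in forelimb replicates 1 and 2, and 51510 and 78147 in hindlimb replicates 1 and 2. The forebrain list was longer, with 120297, so its marker counts below are not on an equal footing. The lists hold no read totals, so depth per library is unknown and list length stands beside the counts. Hindlimb replicate 1 stood apart with the shortest list and only 19903 peaks at a −log10 q of 5 or more, against 40755 to 48616 in the other 3. The label of ectoderm was checked against marker genes with a peak summit within 1 kb of a gene end. Of 24 basal epidermis genes, 21, 21, 14 and 21 had one in forelimb replicates 1 and 2 and hindlimb replicates 1 and 2, and 16 had one in forebrain. The counts for 19 limb mesenchyme genes were 11, 10, 8 and 10, with 16 in forebrain. For 10 blood and immune genes they were 3, 1, 1 and 1, with 2 in forebrain. For 10 endothelial genes they were 7, 4, 3 and 4, with 8, and for 9 melanocyte genes 5, 5, 4 and 5, with 6. For 19 differentiated epidermis genes they were 10, 9, 8 and 12, with 7. For 9 periderm genes they were 3, 2, 2 and 4, with 3, which does not set ectoderm apart. Nor do the epidermis lists set hindlimb replicate 1 apart, with 14 basal genes against 16 in forebrain and 8 differentiated genes against 7. The 6 muscle genes had 0, 2, 0 and 2, with 4, the 6 Schwann cell genes 3, 4, 2 and 3, with 5, and the 6 Merkel cell genes 5, 5, 4 and 5, with 5. A peak at a gene end does not show that the gene was expressed, and its absence does not show that it was silent. The part of other cell types in the limb difference was not tested.

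Some limb-only regions covered the start of a gene, and the promoters of 5 such genes are shown because they belong to limb or skin programmes or to the strongest gene-end regions. Lef1, a transcription factor of the Wnt pathway that is needed for hair follicles, and the ligand Wnt16 were covered by hindlimb-only regions. Crisp2, a cysteine-rich secretory protein known from testis, the growth factor gene Fgf5 and the distal limb gene Hoxa13 were covered by forelimb-only regions. These regions do not make the gene ends limb-only. All 4 ectoderm libraries had a peak summit within 1 kb of an end of Wnt16, and hindlimb replicate 1 had one at Hoxa13 beside both forelimb replicates. The Hoxa13 region was weak, with a −log10 q of 2.49 and 3.62, and the Wnt16 region lay close to a forelimb peak, as given below. Each sequence runs from 250 bases before to 50 bases after a start in the RefSeq table for GRCm38.p6 (mm10). The windows are chr3:131110047-131110346 on the plus strand for Lef1, chr6:22287977-22288276 on the plus strand for Wnt16, chr17:40794097-40794396 on the minus strand for Crisp2, chr5:98253934-98254233 on the plus strand for Fgf5 and chr6:52260831-52261130 on the minus strand for Hoxa13. Capitals mark letters that match, on either strand and with overlaps allowed, any of 7 motifs. They are the GC box with the letters GGGCGG, the CCAAT box, the TATA box with the letters TATAAA, the AP-1 motif with TGANTCA, the AP-2 motif with GCCNNNGGC, the HOX-PBX motif with TGATNNAT and the CRE with TGACGTCA.
Lef1: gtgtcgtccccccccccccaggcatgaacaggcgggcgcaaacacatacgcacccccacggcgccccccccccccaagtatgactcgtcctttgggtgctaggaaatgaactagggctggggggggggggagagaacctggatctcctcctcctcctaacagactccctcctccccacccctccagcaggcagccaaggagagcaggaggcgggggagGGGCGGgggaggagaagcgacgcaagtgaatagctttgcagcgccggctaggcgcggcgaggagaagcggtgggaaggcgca
Wnt16: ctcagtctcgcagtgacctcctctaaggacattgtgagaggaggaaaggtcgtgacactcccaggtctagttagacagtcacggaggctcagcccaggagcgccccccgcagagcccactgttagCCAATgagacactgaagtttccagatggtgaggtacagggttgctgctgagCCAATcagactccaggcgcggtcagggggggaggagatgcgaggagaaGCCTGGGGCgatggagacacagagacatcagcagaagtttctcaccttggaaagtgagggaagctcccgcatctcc
Crisp2: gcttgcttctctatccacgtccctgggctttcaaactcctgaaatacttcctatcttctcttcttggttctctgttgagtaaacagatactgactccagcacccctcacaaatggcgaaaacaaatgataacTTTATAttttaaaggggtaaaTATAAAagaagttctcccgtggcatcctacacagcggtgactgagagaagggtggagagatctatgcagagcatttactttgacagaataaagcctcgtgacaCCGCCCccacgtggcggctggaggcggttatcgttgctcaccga
Fgf5: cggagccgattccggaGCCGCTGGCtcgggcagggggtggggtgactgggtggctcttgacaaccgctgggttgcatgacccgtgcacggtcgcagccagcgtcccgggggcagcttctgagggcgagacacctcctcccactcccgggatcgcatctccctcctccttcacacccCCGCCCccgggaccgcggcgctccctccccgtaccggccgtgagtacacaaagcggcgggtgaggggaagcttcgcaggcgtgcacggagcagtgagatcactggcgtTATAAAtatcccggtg
Hoxa13: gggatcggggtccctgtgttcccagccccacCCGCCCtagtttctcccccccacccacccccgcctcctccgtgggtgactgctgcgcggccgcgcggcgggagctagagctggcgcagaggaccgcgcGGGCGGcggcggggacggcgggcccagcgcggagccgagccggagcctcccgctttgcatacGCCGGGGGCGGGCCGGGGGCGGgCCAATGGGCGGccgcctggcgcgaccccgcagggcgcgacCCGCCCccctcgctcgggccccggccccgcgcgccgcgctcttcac
The summit of the region lay 6 bp downstream of the start at Lef1, 46 bp downstream at Crisp2, 33 bp downstream at Fgf5, 13 bp downstream at Hoxa13 and 100 bp upstream at Wnt16. The Hoxa13 window is 81.0% G and C and holds 6 GC boxes, against 46.7% and 1 in the Crisp2 window, which holds 2 TATA boxes. 
On the chromosomes that the promoter table covers, 4.43% of forelimb-only and 3.65% of hindlimb-only regions touched a listed promoter. The share was 7.91% over all regions there and 40.7% over regions with a peak in all 4 ectoderm libraries. These regions touched 218 and 60 promoters. The GC box was found in 41.3% of the forelimb-only and 55.0% of the hindlimb-only promoters, beside 35.7% of all 32851 promoters. The exact 95% intervals of the first 2 overlapped, at 34.7 to 48.1 and 41.6 to 67.9. All promoters here include those that no ectoderm peak touched. The counterpart shares were 34.4%, 35.0% and 37.4% for CCAAT, 11.01%, 8.33% and 13.6% for the TATA box, and 17.4%, 20.0% and 16.6% for the AP-2 letters. They were 7.80%, 11.7% and 7.81% for AP-1 and 6.42%, 13.3% and 8.85% for HOX-PBX, where the hindlimb-only value rests on 8 of 60 promoters (exact 95% interval 5.94 to 24.6). The CRE was found in 0.917% of the forelimb-only promoters, in 0 of the 60 hindlimb-only ones (upper exact bound 5.96%) and in 1.79% of all. The E-box CANNTG, searched for but not capitalised, was found in 77.5% of forelimb-only promoters, in 45 of the 60 hindlimb-only ones and in 72.3% of all. Median G and C content was 55.3%, 59.7% and 52.7%.

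Forelimb-only regions outnumbered hindlimb-only regions by 3.04 to 1. The plot of regions by library shows that most regions belonged to 1 library, between 22665 and 28650 for each, and that 21042 (13.3%) had a peak in all 4. Among regions with a peak in exactly 2 libraries, 5489 were in forelimb replicate 1 with hindlimb replicate 2, and 5382 in forelimb replicate 2 with hindlimb replicate 2. Both of these pairs across limbs held more regions than the 4688 of the forelimb pair. The pairs of hindlimb replicate 1 with forelimb replicates 1 and 2 held 1006 and 856, fewer than the 1544 of the hindlimb pair. A further 12173 regions lacked a peak in hindlimb replicate 1 alone, against 1167 and 1094 that lacked one in forelimb replicate 2 or 1 alone, and 541 that lacked one in hindlimb replicate 2 alone. No p-value is given for the limb comparison, since 2 libraries against 2 cannot go below 0.333 in a two-sided exact permutation test.

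**Figure D1:**
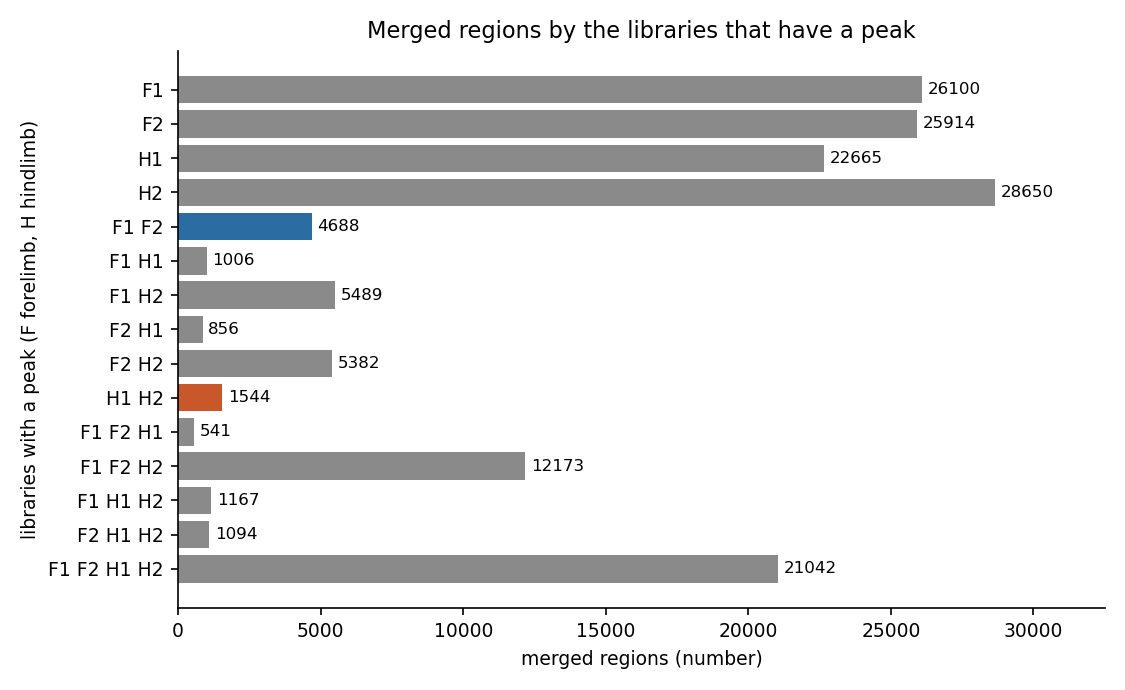
Number of merged regions (horizontal axis) for each combination of libraries with a peak (vertical axis; F1 and F2 forelimb replicates, H1 and H2 hindlimb replicates). The forelimb-only bar (4688, blue) is longer than the hindlimb-only bar (1544, orange), and both are shorter than the bar for all 4 libraries (21042).

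The excess of forelimb-only regions was present with lists of equal length and absent when a hindlimb library was left out. With the 51510 strongest peaks of each list, 3499 regions were forelimb-only and 1317 hindlimb-only, a ratio of 2.66. With every list limited to a −log10 q of at least 5 the counts were 2542 and 505. Without hindlimb replicate 1 they were 5243 and 30278, and without hindlimb replicate 2 they were 16991 and 24364. A limb with 1 library has a looser requirement for presence, so these last counts favour that limb by construction, and leaving out a forelimb library favoured the forelimb in turn (30952 to 2748 and 31040 to 2656). With 2 libraries on each side the hindlimb requirement in turn rests on the short list of hindlimb replicate 1, the more so at a −log10 q of 5. The plot of counts under other settings shows a forelimb excess in all 7 other settings with 2 libraries a limb, between 2.66 and 7.44 to 1. The part of hindlimb replicate 1 in the counts was not tested beyond these settings.

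**Figure D2:**
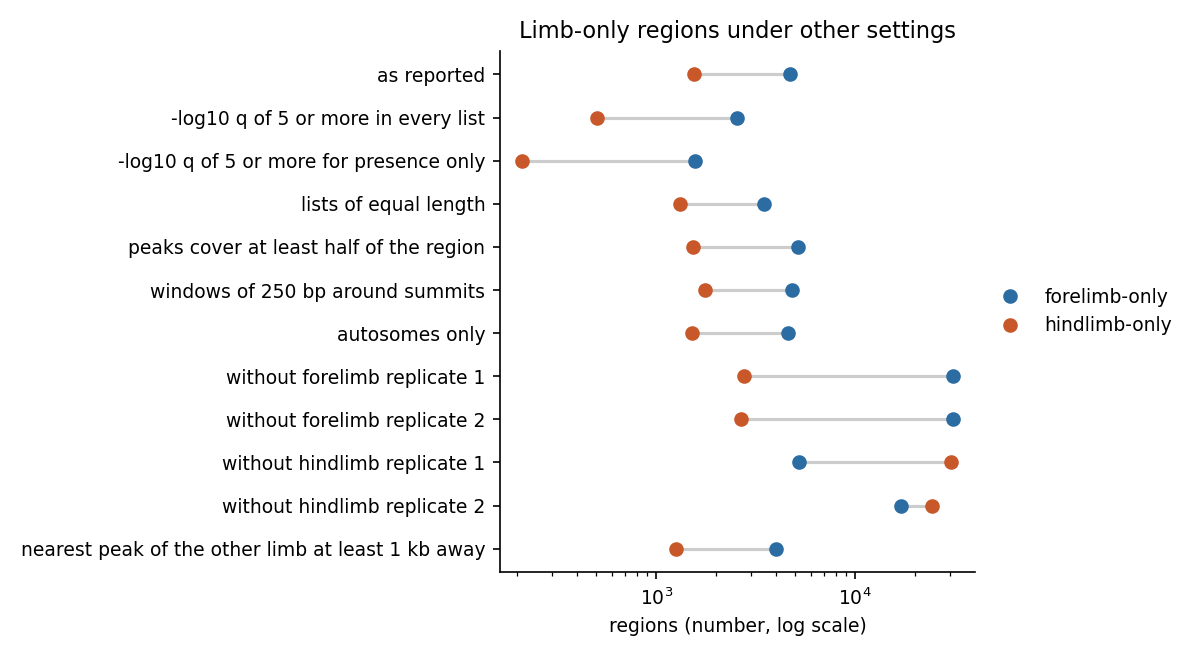
Forelimb-only (blue) and hindlimb-only (orange) region counts on a log axis, as reported and under each other setting. Forelimb-only counts are higher except where a hindlimb library is left out, where they are 5243 against 30278 and 16991 against 24364.

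Limb-only regions were weaker and shorter than regions found in all 4 libraries. A region spans all its merged peaks, and strong peaks are called in more lists, so this contrast follows in part from the selection. A −log10 q is the authors' value for a peak in its own list. Forelimb-only regions had a median of 5.05 and 5.12 in forelimb replicates 1 and 2, and hindlimb-only regions 3.36 and 4.86 in hindlimb replicates 1 and 2. The rule required such peaks, so these values describe the members and support no difference between limbs. The weakest members lay at 1.31 to 1.32, the authors' threshold. Just outside the rule, the 12173 regions with both forelimb libraries and hindlimb replicate 2 had a median of 10.3 in that library, and the 541 with hindlimb replicate 1 had 3.47. Median length was 324 bp for forelimb-only and 356 bp for hindlimb-only regions, against 636 bp for regions in all 4 libraries and 227 to 233 bp for regions of a single library. Pairs of libraries across limbs had medians of 321 to 364 bp. The median percentile by −log10 p within the list was 45.4 and 45.6 for forelimb-only regions and 40.1 and 36.96 for hindlimb-only regions, against 78.8 to 86.1 for regions in all 4 libraries. Of the forelimb-only regions, 1570 (33.5%) reached a −log10 q of 5 in both libraries, and of the hindlimb-only regions 211 (13.7%) did.

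Some limb-only regions sat beside a peak of the other limb. The nearest such peak lay within 250 bp of 328 (6.997%) of the forelimb-only and 113 (7.32%) of the hindlimb-only regions, and beyond 10 kb of 39.6% and 33.1%. The distance is given beside many of the regions named. Requiring at least 1 kb, a setting chosen after seeing the data, left 3977 and 1258 regions.

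The 2 sets were placed alike relative to genes, with overlapping intervals. A summit within 1 kb of an end of a protein-coding gene was found for 373 forelimb-only regions (7.96%, exact 95% interval 7.20 to 8.77) and 118 hindlimb-only regions (7.64%, 6.37 to 9.08). Among regions in all 4 libraries the share was 43.4% (42.7 to 44.0), and among all regions it was 11.1% (10.9 to 11.2). A further 40.7% and 42.2% lay inside genes, 31.5% and 31.5% within 100 kb of one, and 19.9% and 18.6% farther out. The shares over all regions were close to these, at 39.6%, 29.9% and 19.5%. Read against all regions near a gene end, 2.13% were forelimb-only and 0.673% hindlimb-only. These intervals cover counting error only.

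The sets differed in their overlap with forebrain, which the rule did not use. A forebrain peak overlapped 2167 forelimb-only regions (46.2%, 44.8 to 47.7) and 409 hindlimb-only regions (26.5%, 24.3 to 28.8), against 29.4% of all regions and 74.3% of those in all 4 ectoderm libraries. Away from gene ends the shares were 43.8% and 23.1%, and near gene ends 74.5% (69.8 to 78.9) and 66.9% (57.7 to 75.3), where the intervals overlap. The gap was present in each of 4 strength groups, which were cut within each set and so are not matched in strength. With each set divided into 4 equal groups by strength, the share ran from 39.5% to 53.2% from the weakest to the strongest forelimb-only group, and from 22.5% to 28.2% in the hindlimb-only groups, with 30.1% in the third. In this and later ranks, strength is the lower of a region's within-list percentiles of −log10 p. In common bins of that percentile the shares were 39.1% and 22.7% from 0 to 20 and 45.4% and 30.5% from 20 to 40. They were 51.1% and 28.1% from 40 to 60 and 54.3% and 26.0% from 60 to 80. From 80 to 100 there were only 17 and 6 regions, and the intervals overlapped (32.9 to 81.6 and 4.33 to 77.7). With every list limited to a −log10 q of at least 5 the shares were 49.8% and 28.7%, and with lists of equal length 35.6% and 20.7%.

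**Figure D3:**
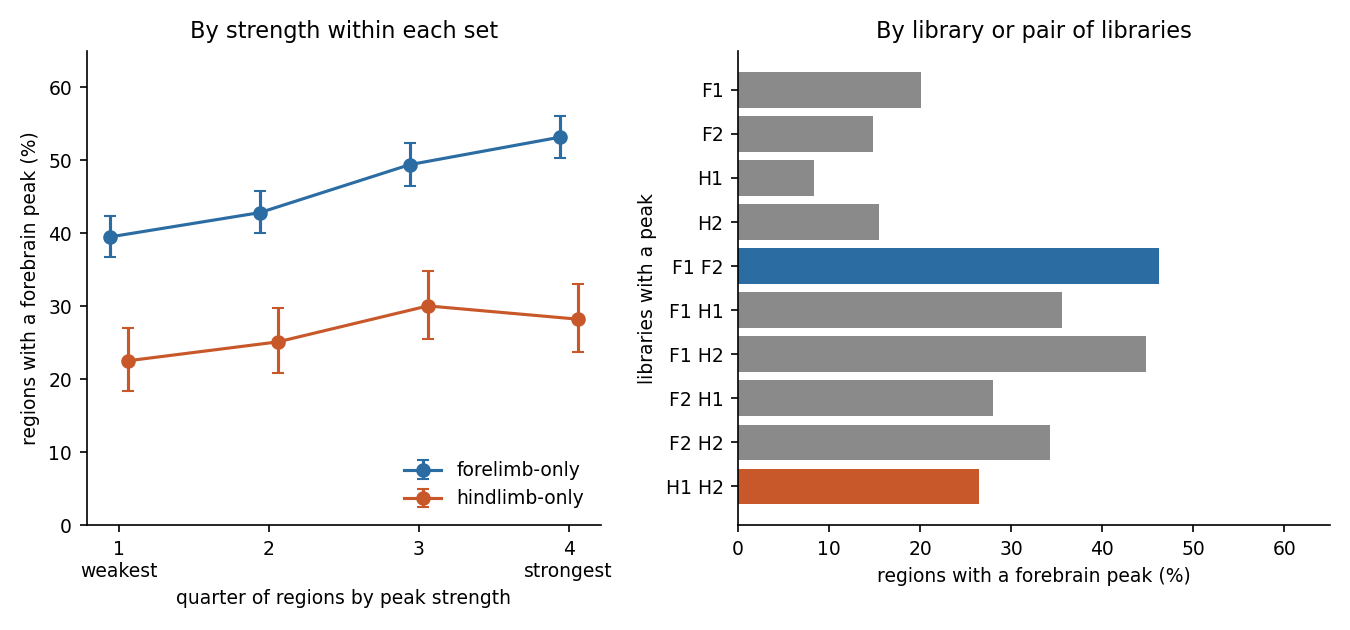
Left, percent of regions with a forebrain peak in 4 equal groups by strength, cut within each set, with exact 95% intervals as bars. Right, the same percent by library or pair of libraries with a peak; the forelimb pair reaches 46.2%, forelimb replicate 1 with hindlimb replicate 2 reaches 44.8%, and the hindlimb pair 26.5%.

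The forebrain share also varied between single libraries. Among regions with a peak in 1 library only it was 20.1% and 14.8% in forelimb replicates 1 and 2, and 8.30% and 15.5% in hindlimb replicates 1 and 2. Among pairs across limbs, forelimb replicate 1 with hindlimb replicate 2 had 44.8%, forelimb replicate 1 with hindlimb replicate 1 had 35.6%, forelimb replicate 2 with hindlimb replicate 2 had 34.3%, and forelimb replicate 2 with hindlimb replicate 1 had 28.0%. All 4 lay between the hindlimb pair and the forelimb pair. A limb left with 1 library takes in such single-library regions, so leaving out a library lowers that limb's share by construction. Without forelimb replicate 1 the shares were 20.2% for forelimb-only and 38.4% for hindlimb-only regions, and without forelimb replicate 2 they were 24.3% and 31.1%. Without hindlimb replicate 1 they were 47.8% and 16.1%, and without hindlimb replicate 2 they were 53.0% and 9.71%. The part of single libraries in the limb difference was not tested.

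The strongest hindlimb-only regions included Sp8 and Tfap2b. The region ranked highest lay at 27053450 to 27053920 on chromosome 4, with no protein-coding gene within 100 kb, and had a −log10 q of 18.1 and 39.2 in hindlimb replicates 1 and 2. The next lay inside Tfap2b, which encodes a transcription factor of the AP-2 family, at 19233698 to 19234324 on chromosome 1, with 19.8 and 34.9. A region of 1221 bp inside Sp8 followed, at 118848416 to 118849636 on chromosome 12, with 32.4 and 34.4. Sp8 encodes a zinc finger factor of the apical ectodermal ridge. Neither forelimb list had a peak in any of these regions, and the nearest forelimb peak was 22157 bp, 1824 bp and 1113 bp away. The Tfap2b and Sp8 regions had a forebrain peak, and the region on chromosome 4 had none.

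Of the hindlimb-only regions ranked next, one lay 14.7 kb from Crnn, a gene of the epidermal differentiation complex that encodes cornulin, at 93164346 to 93164683 on chromosome 3, with a −log10 q of 13.4 and 30.6. Another lay inside Stx11, a syntaxin gene known from immune cells, 765 bp from a gene end, with 12.4 and 32.0. Regions inside Lama2, a laminin chain gene, and Itga8, an integrin gene, had 12.1 and 31.7 and 10.4 and 22.1. The list was completed by Hoxa7 (10.4 and 22.1), Tenm3, a teneurin gene (8.82 and 23.1), and a second region without a gene, on chromosome 14 (8.81 and 20.3). In each of these 10 regions the value was higher in hindlimb replicate 2 than in replicate 1, whose list was shorter and weaker throughout, and the plot of the strongest regions shows the pairs. Of the 10 regions, 2 had a forebrain peak. The nearest forelimb peak was at least 1113 bp from every one.

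**Figure D4:**
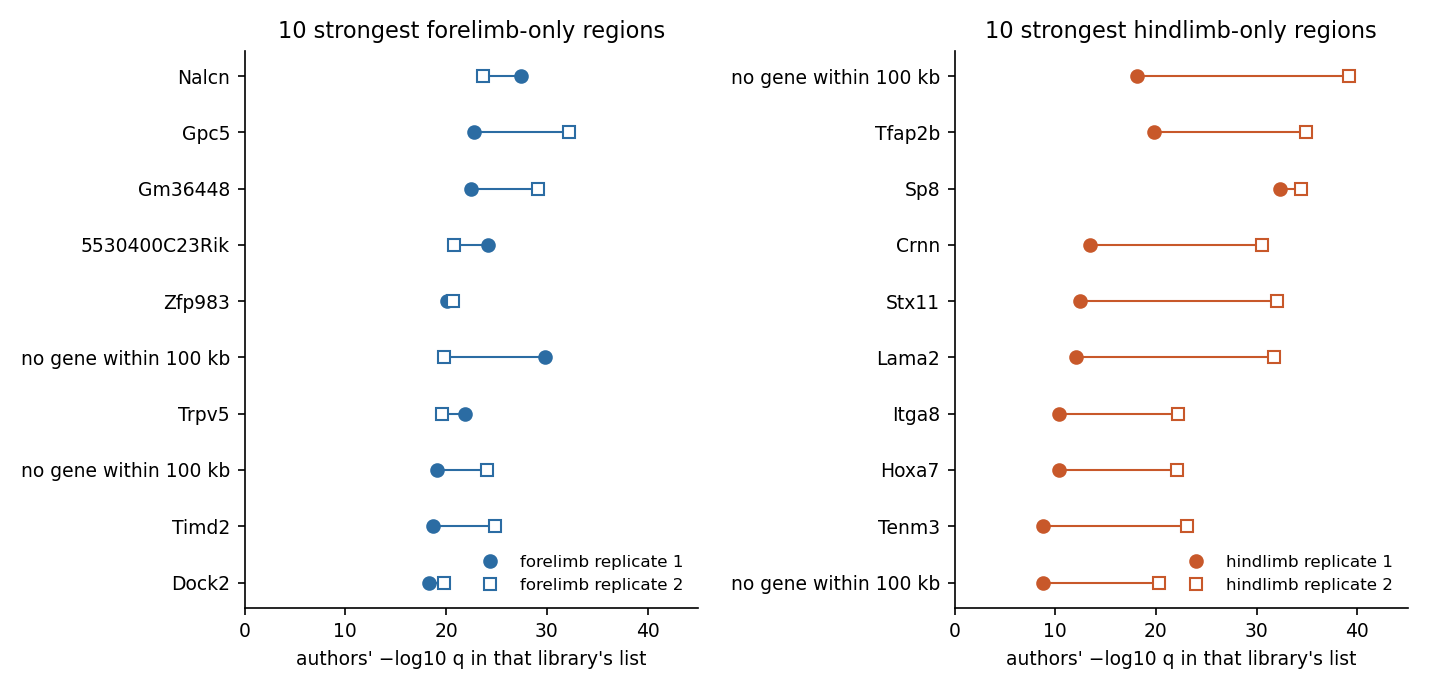
The authors' −log10 q (horizontal axes) of the 10 strongest forelimb-only (left) and hindlimb-only (right) regions, labelled by the nearest protein-coding gene, in replicate 1 (filled circle) and replicate 2 (open square) of the limb that has the peak. Hindlimb values are lower in replicate 1 in all 10 regions, while forelimb values lie on either side.

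The strongest forelimb-only regions were 268 to 472 bp long, and 8 of the 10 had a forebrain peak. The region ranked highest lay inside Nalcn, a sodium leak channel gene of neurons, at 123371574 to 123371890 on chromosome 14, with a −log10 q of 27.4 and 23.6 in forelimb replicates 1 and 2. A hindlimb peak lay only 179 bp from it. A region inside Gpc5, a glypican gene, at 115468003 to 115468299 on the same chromosome, had 22.8 and 32.2, with the nearest hindlimb peak 7009 bp away. A region in the annotated T cell receptor alpha locus Tcra, with Gm36448 as the nearest protein-coding gene, lay at 52580344 to 52580712 on chromosome 14 and had 22.5 and 29.2. The others lay near 5530400C23Rik (24.2 and 20.75), the zinc finger gene Zfp983 (20.1 and 20.7), the calcium channel gene Trpv5 (21.9 and 19.6), Timd2 (18.7 and 24.9) and Dock2, a regulator of the cytoskeleton in blood cells (18.3 and 19.8), and in 2 places without a gene within 100 kb. The Zfp983 region lay 89 bp from a hindlimb peak. None of the genes named here belongs to the gene lists for limb or skin.

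At gene ends, the strongest hindlimb-only regions included the transcription factor genes Hoxa7, Hoxc5 and Maf. After Stx11 and Hoxa7 came Hmga2, an architectural chromatin protein of embryonic cells, with a −log10 q of 8.34 and 28.6 at 157 bp from a gene end. Prps2 on the X chromosome, a nucleotide synthesis gene, had 8.06 and 37.8. Maf, a transcription factor gene, had 5.59 and 12.1, and Lgals7, the galectin of stratified epithelia, had 5.52 and 10.5. Hoxc5 had 11.5 and 14.8, the protease gene Prss36 8.38 and 15.55, Gm30990 6.96 and 15.9 and Podxl2 5.25 and 21.8. The Gm30990 and Podxl2 regions lay 76 and 72 bp from a forelimb peak. The forelimb-only counterparts were led by Zfp983, the PHD finger gene Phf14 (16.8 and 16.4) and Zfp40 (18.6 and 15.9), each within 250 bp of a hindlimb peak. H2-Eb1, a class II histocompatibility gene, had 13.8 and 13.4, Tsnax 12.5 and 15.1, and Phactr3 12.2 and 14.1. The region shared by Ap4m1 and the replication gene Mcm7 had 11.45 and 16.1 but lay 51 bp from a hindlimb peak. Crisp2, whose promoter is printed above, had 21.1 and 11.5, with the nearest hindlimb peak 8714 bp away. Asxl2, a chromatin regulator, had 16.7 and 10.6, and Bean1 11.5 and 10.4.

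The 12 limb identity genes were assigned 109 regions, of which 1 was forelimb-only and 1 hindlimb-only, or 0.917% each. Over all regions assigned to a gene, 2.95% were forelimb-only and 0.986% hindlimb-only, and counts of 1 do not set these genes apart. The forelimb-only region lay inside Tbx5, the selector of the forelimb, at 119845050 to 119845320 on chromosome 5, 40.0 kb from the nearest gene end. Its −log10 q was 9.84 and 6.93 in the forelimb replicates, the nearest hindlimb peak was 21.6 kb away, and forebrain had a peak there too. The other 17 regions of Tbx5 met neither definition. Tbx4 and Pitx1, which act in hindlimb mesenchyme, had 6 and 9 regions and 0 limb-only regions. Isl1, Sall4, Tbx2, Tbx3, Tbx15 and Shox2 also had 0, among 15, 9, 6, 18, 14 and 8 regions.

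Hox genes held 4 hindlimb-only and 3 forelimb-only regions among 115, or 3.48% and 2.61%, beside 0.986% and 2.95% of all regions assigned to a gene. Each of the 4 hindlimb-only regions lay within 1 kb of an end of a different gene. At Hoxa7, 52217380 to 52217758 on chromosome 6, the −log10 q was 10.4 and 22.1, and no forelimb peak lay within 3892 bp. At Hoxb13, 96194095 to 96194419 on chromosome 11, it was 4.42 and 14.2, with a forelimb peak 247 bp away. At Hoxc11, 102954385 to 102954744 on chromosome 15, it was 2.64 and 4.87, and at Hoxc5, 103014068 to 103014514 on the same chromosome, it was 11.5 and 14.8 with a forelimb peak 919 bp away. Of these, Hoxa7 alone had no forebrain peak. The forelimb-only regions were weaker. Those at Hoxa13, 52260708 to 52261285 and 52270376 to 52270813 on chromosome 6, had 2.49 and 3.62 and 2.19 and 5.96, and the one nearest to Hoxb9 had 3.59 and 4.08 and lay 33 bp from a hindlimb peak. No HoxD gene had a limb-only region among 23 regions, and the remaining HoxC genes (Hoxc4, Hoxc6, Hoxc8, Hoxc9, Hoxc10, Hoxc12 and Hoxc13) had 0.

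The balance at Hox genes varied with the setting. With lists of equal length the counts were 0 forelimb-only and 5 hindlimb-only, beside 2835 and 1085 over all genes. With every list limited to a −log10 q of at least 5 they were 0 and 5, beside 2075 and 413. With the nearest peak of the other limb at least 1 kb away they were 2 and 2, beside 3119 and 1005. Without hindlimb replicate 1 they were 3 and 35, beside 4226 and 24392 over all genes. Leaving out hindlimb replicate 2 gave 6 and 19, beside 14273 and 18700. Leaving out forelimb replicate 1 gave 11 and 5, beside 23283 and 2310, and leaving out forelimb replicate 2 gave 26 and 7, beside 24156 and 2180. A limb left with 1 library is favoured by construction, at Hox genes and over all genes. Inside the span of the HoxA cluster, forelimb replicates had a peak in 8 and 6 of 23 regions and hindlimb replicates in 8 and 14. In the HoxC cluster the counts were 12 and 9 against 10 and 19 of 22 regions. In HoxB they were 6 and 5 against 9 and 7 of 21, and in HoxD 12 and 5 against 4 and 9 of 21. Replicates of 1 limb thus overlapped the range of the other limb in HoxA, HoxC and HoxD, and in HoxB alone both hindlimb libraries were above both forelimb libraries. No test was made on these small counts, and the Hox genes were chosen with earlier results of these data known. The Hox cofactor genes, whose proteins bind DNA together with Hox proteins, had 1 forelimb-only and 3 hindlimb-only regions among 163 (0.613% and 1.84%). The cofactor counts were 2 and 0 with every list limited to a −log10 q of at least 5, beside 2075 and 413 over all genes. They were 1 and 0 with that limit for presence alone, beside 1270 and 172. With lists of equal length they were 2 and 2, beside 2835 and 1085. The 3 hindlimb-only regions were 2 inside Meis2 and 1 inside Meis1, and the forelimb-only region lay in Meis3. The stronger Meis2 region, 116002363 to 116002655 on chromosome 2, had a −log10 q of 4.78 and 18.03.

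Genes of the apical ectodermal ridge had 8 forelimb-only and 4 hindlimb-only regions among 188, or 4.26% and 2.13%. Sp8 had 2 hindlimb-only regions and 0 forelimb-only, the second with a −log10 q of 2.06 and 3.97. The receptor gene Fgfr2, which answers to ridge and mesenchymal FGFs, had 2 forelimb-only and 1 hindlimb-only regions. Bmp4 had 1 hindlimb-only region. Bmp7, Msx1, Msx2, Dkk1, Dlx6 and Sp6 had 1 forelimb-only region each, with a −log10 q between 1.89 and 8.44. The ridge counts were 2 and 3 with every list limited to a −log10 q of at least 5, beside 2075 and 413 over all genes. They were 5 and 5 with lists of equal length, beside 2835 and 1085. Where that limit applied to presence alone they were 1 and 2, beside 1270 and 172. The dorsoventral genes En1, Wnt7a and Lmx1b had 0 limb-only regions among 58.

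Epidermal genes held regions of both kinds. The 24 basal epidermis genes had 9 forelimb-only and 5 hindlimb-only regions among 327, or 2.75% and 1.53%. All regions assigned to a gene had 2.95% and 0.986%. Trp63, whose product p63 is needed for stratified epithelia to form, had 2 of each, all inside the gene on chromosome 16. The hindlimb-only one at 25765584 to 25766051 had a −log10 q of 2.94 and 18.3. The forelimb-only ones, 25775000 to 25775307 and 25774504 to 25774833, had 3.73 and 8.05 and 2.52 and 5.22. Grhl2, a regulator of epithelial identity, had 3 forelimb-only regions, the strongest with 5.48 and 5.27. Cdh3, the gene of P-cadherin, had 1 hindlimb-only region with 14.6 and 12.4, at 106520530 to 106520911 on chromosome 8, and no forelimb peak lay within 3658 bp. Epcam had 1 hindlimb-only region with 7.15 and 8.77, but a forelimb peak lay 131 bp away. Perp, Klf5 and Ovol1 had 1 forelimb-only region each, and Dst had 1 of each kind. The basal counts were 4 and 4 with lists of equal length, beside 2835 and 1085 over all genes. They were 6 and 3 with every list limited to a −log10 q of at least 5, beside 2075 and 413. With that limit for presence alone they were 1 and 2, beside 1270 and 172.

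Among 19 genes of differentiated epidermis only Abca12, which moves lipids for the skin barrier, had limb-only regions, 2 forelimb-only and 0 hindlimb-only. The 19 genes held 114 regions, so the shares were 1.75% and 0%, beside 2.95% and 0.986% of all regions assigned to a gene. One lay 146 bp from a gene end, at 71414895 to 71415189 on chromosome 1, with a −log10 q of 7.39 and 4.87, and a hindlimb peak lay 379 bp away. The periderm keratin genes Krt18 and Krt6a had 1 forelimb-only and 1 hindlimb-only region, among 27 regions of the periderm list (3.70% each). Hair and nail appendage genes had 4 and 3 among 204 (1.96% and 1.47%). Foxn1, a regulator of hair keratinisation, had 2 forelimb-only regions (5.50 and 5.18 for the stronger), and Shh and its target Gli1 had 1 each. Lef1, Bmp2 and the Shh receptor gene Ptch1 had 1 hindlimb-only region each. The Lef1 region, at the promoter printed above, had 3.57 and 10.75, with the nearest forelimb peak 1341 bp away and a forebrain peak in place.

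The 3 signalling lists had limb-only regions of both kinds, in numbers too small to set them apart from the 2.95% and 0.986% of all regions assigned to a gene. Wnt pathway genes had 6 forelimb-only and 4 hindlimb-only regions among 265 (2.26% and 1.51%). The Wnt ligands Wnt4, Wnt6 and Wnt16 and the transcription factor gene Tcf7l2 had 1 hindlimb-only region each, and the inhibitor gene Wif1 had 2 forelimb-only regions. The strongest of the ligand regions lay inside Wnt6, with a −log10 q of 3.90 and 21.0, and the Wnt16 region had 3.40 and 3.85 and lay 52 bp from a forelimb peak. Dkk2, Tcf7l1, Lrp5 and Kremen1 had 1 forelimb-only region each. FGF pathway genes had 3 and 1 among 144 (2.08% and 0.694%), with Fgf5, Fgf10 and Spry2 on the forelimb side and Fgfr1 on the hindlimb side. BMP and TGF-beta genes had 6 and 1 among 255 (2.35% and 0.392%), with Tgfb2 (8.58 in both replicates), Bmp5, Nog, Acvr1 and Smad5 on the forelimb side and 1 of each kind at Bmpr1b. The plot of limb-only regions by gene list shows all 23 lists.

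**Figure D5:**
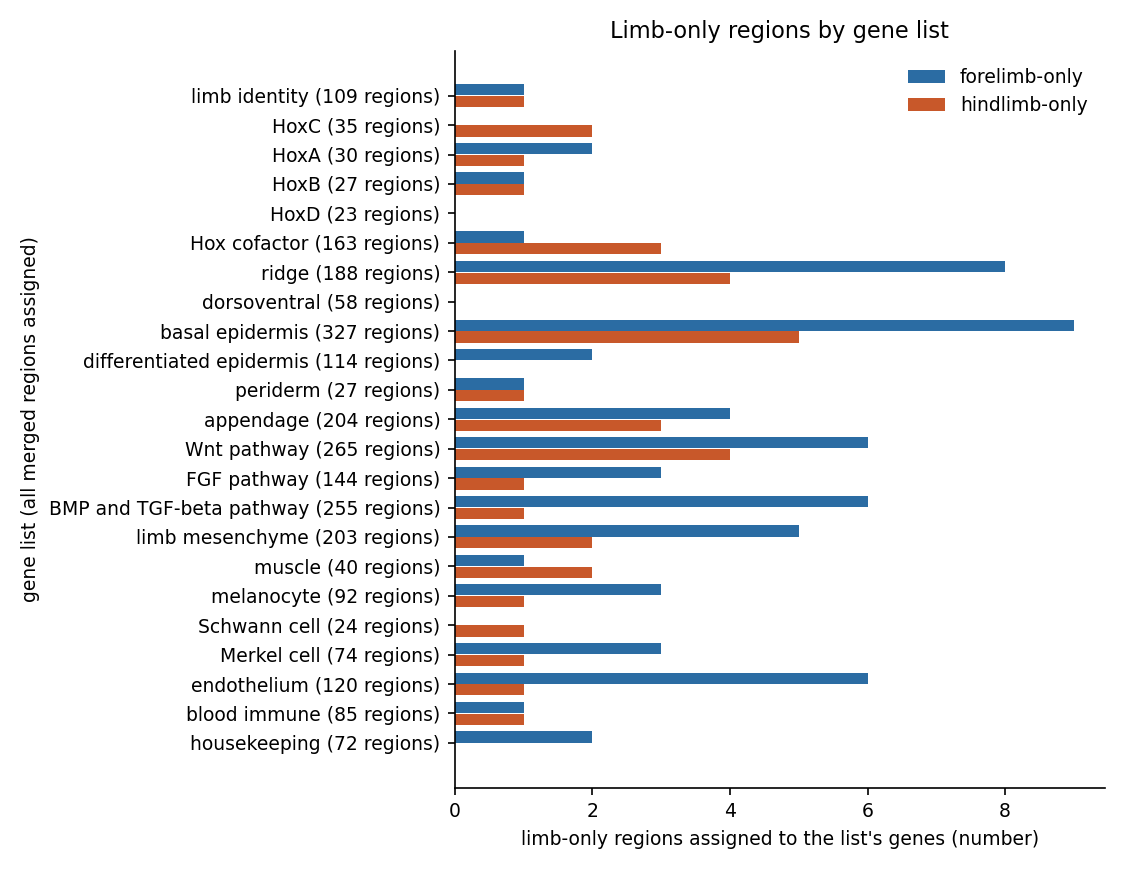
Forelimb-only (blue) and hindlimb-only (orange) regions assigned to each gene list, with the number of all merged regions of the list in brackets. No list exceeds 9 forelimb-only or 5 hindlimb-only regions, both reached by basal epidermis genes.

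Lists of other cell types that an ectoderm preparation could hold are set against the 2.95% and 0.986% of all regions assigned to a gene. Endothelial genes had 6 forelimb-only and 1 hindlimb-only among 120 (5% and 0.833%), with 2 each at Erg and Cdh5 and 1 each at Sox17 and Sox18, and the hindlimb-only region at Tek. The stronger Erg region had a −log10 q of 10.98 and 9.50. Peaks at endothelial gene ends were also most frequent in forelimb replicate 1, at 7 of 10 genes against 3 or 4 in the other ectoderm libraries, and the part of this in the result was not tested. Limb mesenchyme genes had 5 and 2 among 203 (2.46% and 0.985%), with Runx2 (2 forelimb-only), Lum, Prrx2 and Meox2 against Twist1 and Col2a1. Among 40 regions of muscle genes (2.5% and 5%) the limb-only ones were 1 forelimb-only and 2 hindlimb-only regions at Pax3. Melanocyte genes had 3 and 1 among 92 (3.26% and 1.09%), at Mitf, Dct and Tyrp1 against Tyr. Schwann cell genes had 0 and 1 among 24 (0% and 4.17%), at Foxd3. Merkel cell genes had 3 and 1 among 74 (4.05% and 1.35%), with Piezo2 and Insm1 on the forelimb side and 1 of each kind at Sox2. Blood and immune genes had 1 and 1 among 85 (1.18% each), at Ptprc and Csf1r, and housekeeping genes 2 and 0 among 72 (2.78% and 0%), at Gapdh and Emc7. Each of these shares rests on 6 or fewer regions.

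Of 18668 genes with a region, 2978 had a forelimb-only and 1141 a hindlimb-only region, and 364 had both. The excess used below is a difference of counts, by which genes with many regions can rank high. Over all regions assigned to a gene, 2.95% were forelimb-only and 0.986% hindlimb-only. The genes with the largest forelimb excess were long. Their median length was 1310 kb, against 21.1 kb for all genes with a region. They included Nrxn3 (9 forelimb-only and 1 hindlimb-only among 88 regions), Opcml (7 and 0 of 91), Ctnna3 (6 and 0 of 89), Magi2 (6 and 0 of 103), Rbfox1 (6 and 1 of 90), Dlg2 (7 and 2 of 132) and Elmo1 (5 and 0 of 59). Xylt1 (5 and 0 of 33) and Gabrg3 (5 and 0 of 44) were also among them. The excess at Nrxn3, Opcml, Ctnna3, Magi2, Rbfox1, Dlg2 and Elmo1 turned toward hindlimb without hindlimb replicate 1. That setting favours the hindlimb by construction, with 4226 forelimb-only and 24392 hindlimb-only regions over all genes, so the turn is not particular to these genes. The largest hindlimb excess was 3 regions, and the genes ranked highest by it had a median length of 68.3 kb, also above that of all genes. Daam1, a formin gene, Fto and Lypd6b had 0 forelimb-only and 3 hindlimb-only regions, and so did Sfi1. Tenm3 and Gm14410 had 1 and 4, and Cwc22 had 2 and 5. Cwc22 turned toward forelimb, with 1 more forelimb-only region, with every list limited to a −log10 q of at least 5. Nhlh1, Prps2 and As3mt had 0 and 2.

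By chromosome, the forelimb-only share of regions ran from 2.62% on chromosome 11 to 3.57% on X, and the hindlimb-only share from 0.653% on chromosome 9 to 1.25% on chromosome 3. The Y chromosome lay outside both ranges, with 2 forelimb-only (1.18%) and 9 hindlimb-only regions (5.33%) among 169. Peaks on Y numbered 63 and 91 in forelimb replicates 1 and 2 and 118 and 72 in hindlimb replicates 1 and 2, so the limbs overlapped. The part of hindlimb replicate 1 in the Y count was not tested.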

How the data were processed

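ATAC-seq peak lists of 4 limb ectoderm libraries and 1 forebrain library were used. Per the submitters' processing notes, the tools were MACS2 2.1.1.20160309, bedtools, Picard, Bowtie2 2.3.5 and cutadapt 1.16, and the build was mm10. Read shifting was not given in the sources used here. One list per library was deposited, so replicates were not pooled. Each deposited peak has a score (not used), a fold enrichment over local background (given in no comparison) and both its p-value and its q-value on a −log10 scale, all relative to its own list. A −log10 q compares peaks within a list, and values of different lists are set side by side only to describe a region.

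Only chromosomes 1 to 19, X and Y were used. Several summits of 1 interval counted as 1 peak. Merged regions were assigned to the nearest protein-coding gene of the RefSeq table (GRCm38.p6) within 100 kb of the strongest summit, and called near a gene end within 1 kb of either end. Presence of a peak was compared, with no test across regions. Where a library has no peak, the site was not called there, which does not show that it was closed. Exact Clopper-Pearson 95% intervals cover counting error only. Of 300 entries in 23 gene lists, 1 was not found. Analyses used Python 3.11.15, pandas 2.3.3 and scipy 1.17.1, and merging was tested on simulated data.

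Genes and regions named were the 10 strongest regions in each direction, overall and near gene ends, the 10 genes with the largest excess in each direction, every limb identity and HoxC gene, and up to 4 members of each other list with the largest difference. One gene under this rule is not reported here. Further members with the same difference, and the limb-only regions of Trp63, Dst, Bmpr1b and Sox2, were named after their values were seen. The members and lists were chosen with earlier results of these data known. Alternatives were a −log10 q of 5 or more in every list or for presence only, lists of equal length, peaks covering at least 50% of a region, windows of 250 bp around summits, autosomes only, leaving out each library, 2.5 kb to a gene end and 20 kb to a gene.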

Additional observations from a re-analysis of the deposited data

How the results depend on the processing

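No paired analysis was possible because the limb result comes from no test, and nothing in the labels ties equal replicate numbers to a shared litter or batch. Forelimb-only regions outnumbered hindlimb-only regions under every alternative with 2 libraries a limb. A −log10 q of 5 or more in every list gave 2542 forelimb-only and 505 hindlimb-only regions (ratio 5.03), and the same threshold for presence only gave 1570 and 211 (ratio 7.44). Leaving out each library gave 5243 to 31040 and 2656 to 30278 regions and a ratio of 0.173 (without hindlimb replicate 1) to 11.7. Without hindlimb replicate 2 the ratio was 0.697.

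The forelimb-only forebrain share was 49.8% and 52.8% at the 2 thresholds, 35.6% with lists of equal length, 50.2% with peaks over at least 50% of a region, 44.0% in summit windows and 44.5% at least 1 kb from the other limb. The hindlimb-only share was 20.7%, 29.4%, 24.2% and 23.4% under the last 4 of these. Leaving out each library gave 20.2% to 53.0% and 9.71% to 38.4%, where the limb left with 1 library takes in single-library regions by construction. The gene-end share of forelimb-only regions was 9.64%, 6.50%, 11.3% (50% cover), 5.31% (1 kb apart) and 12.8% (gene end within 2.5 kb), and 5.07% to 12.0% with a library left out. That of hindlimb-only regions was 10.7%, 9.48%, 9.49% (equal length), 5.48% (1 kb apart) and 12.2% (2.5 kb), and 4.25% to 13.1%.

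The excess of forelimb-only over hindlimb-only regions at Cwc22 was 1 at both thresholds. With a library left out, the excess ranged from -12 to 28 at Ctnna3, -7 to 2 at Cwc22, -19 to 29 at Dlg2, -6 to 17 at Elmo1, -8 to 5 at Fto, -1 to 21 at Gabrg3, -6 to 4 at Gm14410, -8 to 2 at Lypd6b, -14 to 29 at Magi2, -3 to 26 at Nrxn3, -6 to 25 at Opcml, -11 to 21 at Rbfox1 and -27 to 14 at Tenm3. All 10 of the strongest hindlimb-only regions were called under each alternative. Of the 10 strongest forelimb-only ones, 7 were called with the other limb at least 1 kb away and 8 in summit windows. Both sets were chosen for strength, so the thresholds and lists of equal length could not drop them. Neither could leaving out a library. Leaving out a library loosens the definition for its own limb by construction. Of the causes of these shifts, none was tested. Read totals were not used here, so depth limits cannot be given.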
